A study of Drosophila melanogaster with 4 samples.

Results

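The genes spineless (ss) and rotund (rn) shape the tarsus, the distal part of the fly leg, and ss also gives the antenna its identity. Peaks of Distal-less (Dll) on chromosome arm 3R were chosen by position alone, as those with a midpoint from 12170000 to 12270000 (the window for ss) or from 3270000 to 3430000 (the window for rn), in coordinates of release 5. They numbered 42 of the 16117 peaks of the list, 35 in the window for ss and 7 in the window for rn. The span of ss lay inside its window. The span of rn did not: moved to release 5 by the constant used for 3R, it ran from 3098339 to 3135351 and ended 135 kb before its window began. That window holds the alpha-esterase gene cluster in place of rn, and it is called the esterase window here. The peaks at rn itself were therefore described as well, in a window of the same 160 kb centred on the span of rn, from 3036845 to 3196845, which held 29 peaks. This window was chosen after the positions were seen.

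Dll is a homeodomain transcription factor that marks and patterns the distal parts of the legs and antennae. ss encodes a bHLH-PAS transcription factor, the fly relative of the aryl hydrocarbon receptor, which acts with the partner protein Tango. Loss of ss turns the distal antenna towards leg and removes tarsal segments, and in the antenna its expression depends on Dll. rn encodes a zinc finger transcription factor that is needed for tarsal segments.

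The data are from chromatin immunoprecipitation followed by sequencing (ChIP-seq), which finds DNA that an antibody brings down with its protein. There were 2 libraries of Dll ChIP DNA and 2 of input DNA, all from white prepupae, the brief stage that opens metamorphosis. The labels name no tissue or agent, and the antibody was an affinity-purified rabbit polyclonal serum against Dll. All 4 libraries share the strain Y cn bw sp, which carries y[1] and oc[R3.2], Gr22b[1] with Gr22d[1], cn[1] and CG33964[R4.2], bw[1] with sp[1], as well as LysC[1] and lab[R4.2], MstProx[1] with GstD5[1], and Rh6[1].

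The outcome is 1 peak list for the whole series, with a position and a score for each peak and no value for any library. The score is the authors' own, its scale is not named, and it serves here only to rank peaks within the list. Depth is unknown, no error between replicates can be given, and no test could be run on a binding level. Ranks among windows and genes are therefore descriptions of this list. As the list does not separate cell types, strong binding in few cells and weak binding in many cannot be told apart. No sequence is shown, since the coordinates are of release 5 and no genome of that release was used here. The gene table gives no strand, so the ends of a gene are called the low-coordinate and the high-coordinate end.

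The ss window was dense in peaks of modest score. Its 35 peaks covered 23.2% of the 100 kb, and they stood mainly in ss and on its high-coordinate side. Of them, 13 had their midpoint inside the span of ss, which runs from 12200156 to 12229412 (gene ID 41988). On the high-coordinate side there were 19, and on the low-coordinate side 3. Scores ran from 7.77 to 91.19 with a median of 17.87 (interquartile range 10.98 to 29.41), close to the median of the whole list, 17.27 (11.72 to 35.28). Peaks in the highest 25% of the list numbered 6, or 17.1% of the window's peaks, and 1 was in the highest 10%.

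The highest peak of the ss window lay over the high-coordinate end of the gene. It spanned 12228715 to 12230192, scored 91.19 and ranked 1487 of the list. Just inside the gene from there, the peak at 12226619 to 12227698 scored 52.67. The next in rank, 79.16, stood outside, at 12243702 to 12244597, 14.7 kb beyond the same end of ss. The peak at 12234578 to 12235814, 5.78 kb beyond that end, scored 46.15. Near the opposite end of ss, inside it, the peak at 12206493 to 12207192 scored 41.38. The highest scores thus stood towards both ends of ss and in the stretch beyond its high-coordinate end.

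That stretch, 27.0 kb between ss and the next protein-coding gene CG31279, held 17 peaks, which covered 37.7% of it. It holds no protein-coding gene, only the noncoding genes lncRNA:CR45630 and lncRNA:CR45631 and 1 tRNA gene. The peak at 12232174 to 12232754, with a score of 30.16, had its midpoint in lncRNA:CR45630. On the other side, the 3.90 kb between ss and CG10317 held 0 peaks. From the first peak inside ss to the last one before CG31279, 30 peaks covered 38.8% of 54.4 kb.

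**Figure D1:**
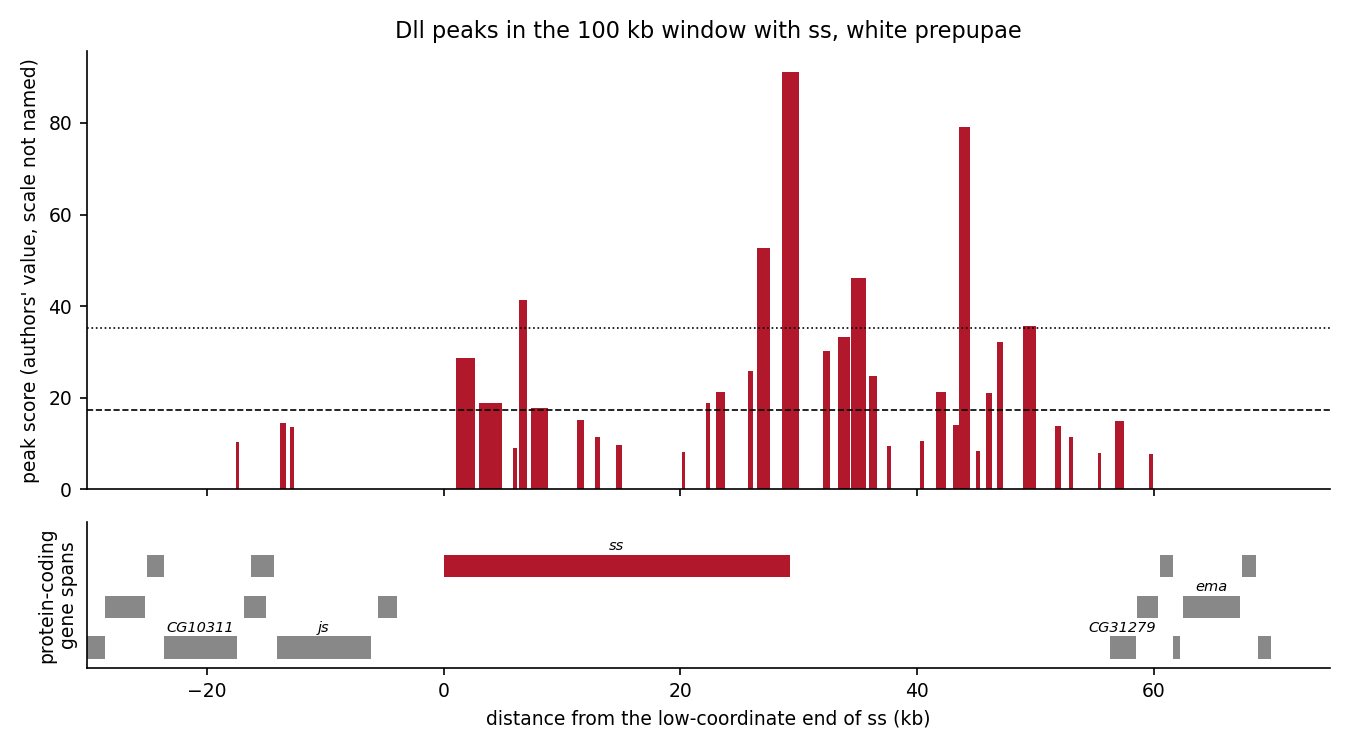
Score of each Dll peak in the ss window (upper panel, bars as wide as the peak and at least 0.3 kb) and spans of protein-coding genes (lower panel), both against distance from the low-coordinate end of ss in kb. Dashed and dotted lines mark the list's median score of 17.27 and its highest 25% from 35.28. Bars crowd over ss and beyond its high-coordinate end, and the highest, 91.19, stands over that end.

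Some of the widest peaks of ss had modest scores. The widest of the window, 2015 bp at 12203104 to 12205118, scored 18.80. Beside it, the peak at 12201220 to 12202760 was 1541 bp wide and scored 28.67, and the peak at 12207493 to 12208946 was 1454 bp wide and scored 17.87. With 2 narrower peaks between them, and gaps under 1000 bp throughout, these 3 made up a region of 7727 bp inside the low-coordinate part of ss. Of the 12086 peaks of the list below the highest 25%, 0.918% were 1454 bp or wider. The other peaks among the 5 widest were that over the high-coordinate end of ss, 1478 bp, and that of 1237 bp with a score of 46.15. This set of wide peaks was picked after the values were seen. The median width of the ss window was 496 bp, against 432 bp in the whole list.

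Peaks of the ss window stood closer together than most. The median gap between neighbours was 921.5 bp in the ss window and 2180 bp on the large arms. Of the gaps in the window, 52.9% were 1000 bp or shorter, against 33.5% on the large arms. The shortest gap, 50 bp, separated the peak of 79.16 from a neighbour of 14.14. The longest, 13.7 kb, ran from 12187471 to 12201219, between the last peak in js and the first in ss.

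Other genes of the ss window held few peaks. Of its 16 protein-coding genes 12 held 0 peak midpoints, namely pad, CG14879, Manf, CG10311, CG17931, CG42446, CG10317, CG14881, mRpS33, ema, Ttc1 and CG14882. Holding 0 was the usual case on this chromosome arm, where 33.9% of 3387 protein-coding genes held at least 1 midpoint in their span. Manf encodes a secreted neurotrophic factor and mRpS33 a protein of the mitochondrial ribosome. js held 2 peaks with a highest score of 14.54. CG31279 held 1, of 14.91, and Fntb, the beta subunit of protein farnesyltransferase, held 1 of 7.77, at 12259769 to 12260001, the last peak of the window. The first peak, at 12182605 to 12182892 with a score of 10.25, lay within 500 bp of an end of CG10311. Just outside the window stood peaks of 7.90, 7.30 kb before it, and of 77.27, 8.83 kb after it.

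At rn the peaks were fewer and the highest ones scored more. The 29 peaks of the rn-centred window covered 9.45% of it. Inside the span of rn (gene ID 40879) lay 12 midpoints, with 11 on the high-coordinate side and 6 on the low-coordinate side. Scores ran from 7.97 to 191.32 with a median of 13.83 (interquartile range 9.52 to 23.35), below the list's median of 17.27. Even so, 3 of the 29 peaks, or 10.3%, were in the highest 10% of the list, a share close to the 10.0% that the list has by construction.

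The highest peak of rn also lay over the high-coordinate end of its gene. It spanned 3134821 to 3136734, was 1914 bp wide, scored 191.32 and ranked 465 of the list. Inside the gene beside it, the peak at 3133407 to 3134211 was 805 bp wide and scored 101.54, and that at 3132455 to 3132912 scored 61.57. Outside, 3.48 kb beyond the end, the peak at 3138368 to 3139300 scored 144.47 over 933 bp. The 3 peaks of the highest 10% thus lay within 5.89 kb. The other 10 peaks inside rn had scores from 7.97 to 23.35.

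A further group of peaks lay 12.9 to 20.9 kb beyond the same end of rn. The peak at 3152248 to 3153006 scored 76.40 and had its midpoint in lncRNA:TS14. Its neighbour at 3151320 to 3152090, 771 bp wide, scored 57.20 and had its midpoint in lncRNA:CR44335. Between rn and this group the protein-coding gene CG10029 held 0 peaks. On the other side of rn, the 1.81 kb up to Syt4 held 0 peaks, and Syt4, which encodes a synaptotagmin, held 1 of 874 bp with a score of 11.47. RacGAP84C and CG42544 lie within the span of rn, and each shares 1 peak midpoint with it, of 8.85 in RacGAP84C and of 9.07 in CG42544.

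The ends of the rn-centred window were sparse. Its first peak, at 3049793 to 3050046, scored 13.83, and its last, at 3171404 to 3171763, scored 10.24 and lay in CG31496. Across the chromosome arm, 33.9% of 3387 protein-coding genes held at least 1 peak midpoint in their span, so holding 0 was common. Of the 24 protein-coding genes that overlap the window, 16 held 0 peaks. Among them were MstProx, at which the strain carries an allele, and the 4 genes Mst84Da, Mst84Db, Mst84Dc and Mst84Dd, which are known for expression in the male germ line. thw held 2 peaks, of which the higher scored 9.30. CG14607 held 1 of 9.52, and Gld, a glucose dehydrogenase, 1 of 8.40.

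The esterase window was sparse over its whole length. Its 7 peaks covered 1.72% of 160 kb and scored a median of 13.45 (interquartile range 11.38 to 17.58). The highest, 61.08, lay at 3384533 to 3385078 between genes. Of the 10 alpha-esterase genes, which encode carboxylesterases, 7 held 0 peaks: alpha-Est1, alpha-Est2, alpha-Est4, alpha-Est5, alpha-Est6, alpha-Est7 and alpha-Est8. That alone does not set them apart, as 33.9% of the 3387 protein-coding genes of the chromosome arm held at least 1 midpoint in their span. alpha-Est3 held 1 peak of 19.71 at 3366544 to 3366879, alpha-Est10 held 1 of 13.45 at 3317177 to 3317433, and alpha-Est9 held 1 of 12.76 at 3327049 to 3327618. Mics1 overlaps alpha-Est9 and the same peak.

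The tubulin gene alphaTub84D held a peak of 15.45 at 3357048 to 3357563. Nlg3, a neuroligin gene that runs past the window, held a peak of 10.00 at 3398310 to 3398630. The first peak of the esterase window, of 9.07, lay at 3296314 to 3296514 near CG1142, which itself held 0 peaks, as did CG42656, Ubc84D, Rtnl2 and CG45545. No peak of the window had a neighbour within 1000 bp. Just outside it, a peak of 47.93 stood 8.16 kb before and one of 32.06 stood 93.1 kb after.

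**Figure D2:**
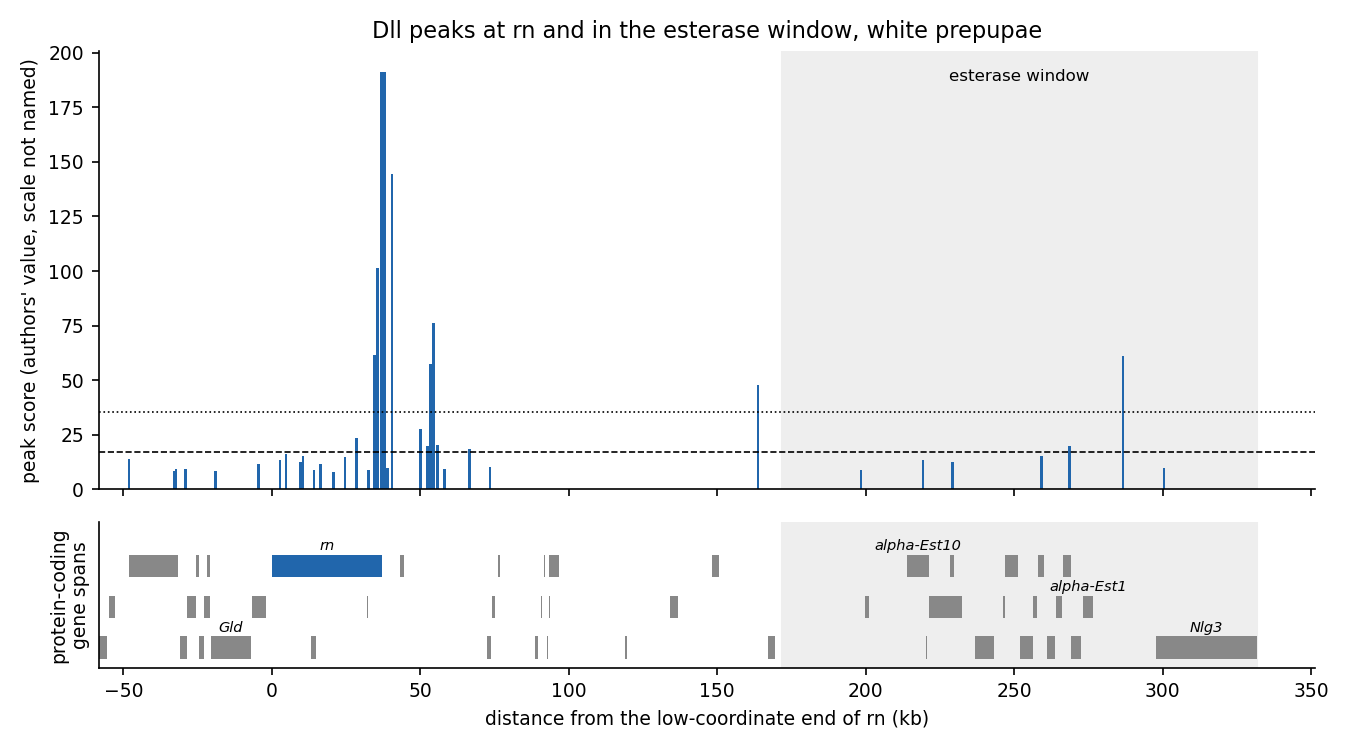
Score of each Dll peak from the rn-centred window to the end of the esterase window (upper panel, bars at least 0.9 kb wide) and spans of protein-coding genes (lower panel), against distance from the low-coordinate end of rn in kb. The esterase window is shaded, and dashed and dotted lines mark scores of 17.27 and 35.28 as for ss. The highest bars, 191.32 and 144.47, stand at and just beyond the high-coordinate end of rn, and the highest of the 7 bars in the shaded window reaches 61.08.

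Among windows of its size, the ss window was near the top by number of peaks and by cover, but not by score. It held 35 peaks, against 13.2 ± 9.53 in the 1184 windows of 100 kb on 2L, 2R, 3L, 3R and X (mean ± SD over windows). As many or more were found in 40 of these windows, or 3.38%. With peaks less than 1000 bp apart merged, its 17 regions were reached by 8.53% of the windows, and the peak number of its central 50 kb was reached by 1.31% of windows of that size. The 23.2% of its length in peaks was reached by 3.97% of the windows. Its 6 peaks in the highest 25% of scores were matched or passed by 19.1%. Its top score of 91.19 was reached by 57.3% and lay below the median of the windows, 110.

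The windows that flank the ss window on either side held fewer peaks. The 100 kb on the low-coordinate side held 24 peaks, over 14.4% of their length, and the 100 kb on the high-coordinate side held 19, over 9.79%. Their highest scores were 136.35 and 77.27, so the ss window led both in number and cover, and stood between them in highest score. Peaks in the highest 25% of scores numbered 8 on the low-coordinate side, 6 in the ss window and 1 on the high-coordinate side. The median scores were 20.24, 17.87 and 16.18 in the same order.

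The rn-centred window was not far from the middle. It held 29 peaks, against 21.1 ± 13.5 in the 740 windows of 160 kb (mean ± SD over windows), and 26.9% of the windows held as many or more. Its cover of 9.45% was reached by 31.2% of the windows, its top score of 191.32 by 41.1%, and its 6 peaks in the highest 25% of scores by 39.1%. In the central 80 kb alone 9.18% of windows of that size had as many peaks or more. The 160 kb on the low-coordinate side of the rn-centred window held 25 peaks over 9.32% of their length. Their top score was 281.02, above that of the rn-centred window, and 10 peaks were in the highest 25% of scores. The 160 kb on the high-coordinate side held 4 peaks over 0.899%, with a top score of 47.93 and 1 peak in the highest 25%. The esterase window was in the sparse part. Its 7 peaks were reached by 86.1% of the windows, 87.4% had as much cover, 81.8% had as high a top score and 90.9% had at least its 1 peak in the highest 25% of scores.

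**Figure D3:**
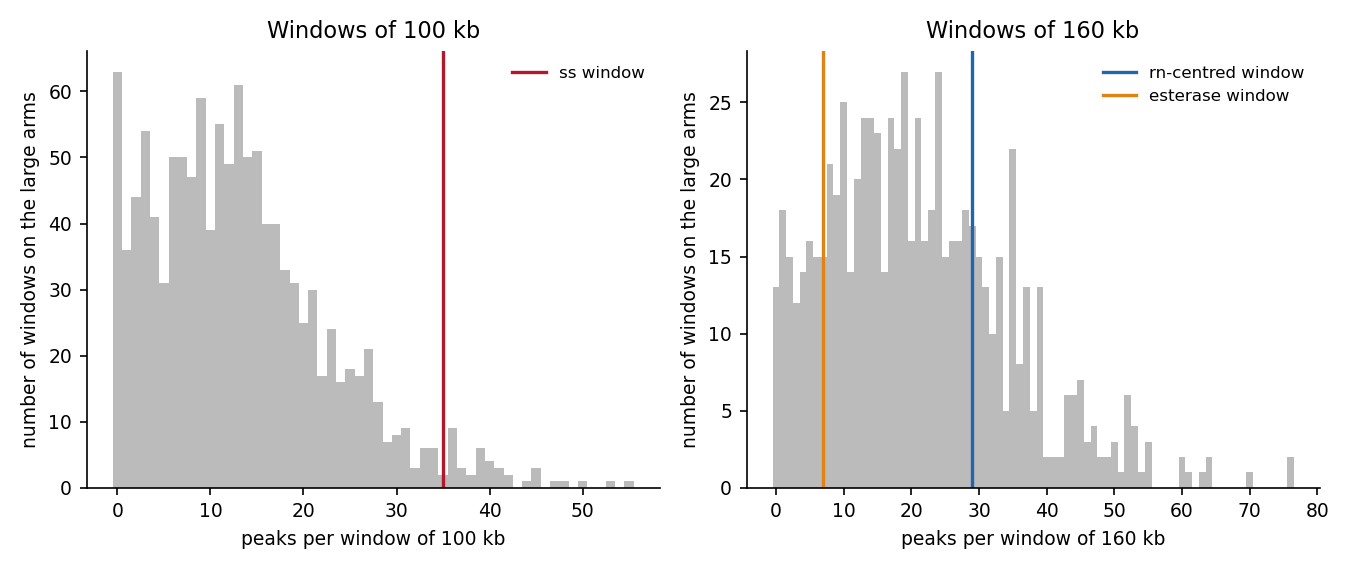
Number of windows on 2L, 2R, 3L, 3R and X (vertical axis) by number of Dll peaks per window (horizontal axis), for windows of 100 kb (left) and 160 kb (right). Vertical lines mark the ss window at 35 peaks, in the upper tail, the rn-centred window at 29 and the esterase window at 7.

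Set side by side, the ss window had more peaks in less sequence, and the rn-centred window had the higher top scores. The peaks numbered 3.50 per 10 kb in the 100 kb of the ss window. In the windows of 160 kb they numbered 1.81 per 10 kb around rn and 0.438 per 10 kb around the esterase genes. The gene spans alone were closer to each other, with 4.44 per 10 kb in ss and 3.24 per 10 kb in rn. Top scores were 91.19 at ss, 191.32 at rn and 61.08 in the esterase window. Peaks with another within 1000 bp made up 74.3% at ss, 41.4% at rn and 0.0% in the esterase window, against 52.3% in the whole list. In the flanking windows this share was 70.8% on the low-coordinate side of the ss window and 47.4% on its high-coordinate side. Beside the rn-centred window it was 68.0% and 0.0%. These are values of 1 list without replicates, and no difference between the loci was tested.

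**Figure D4:**
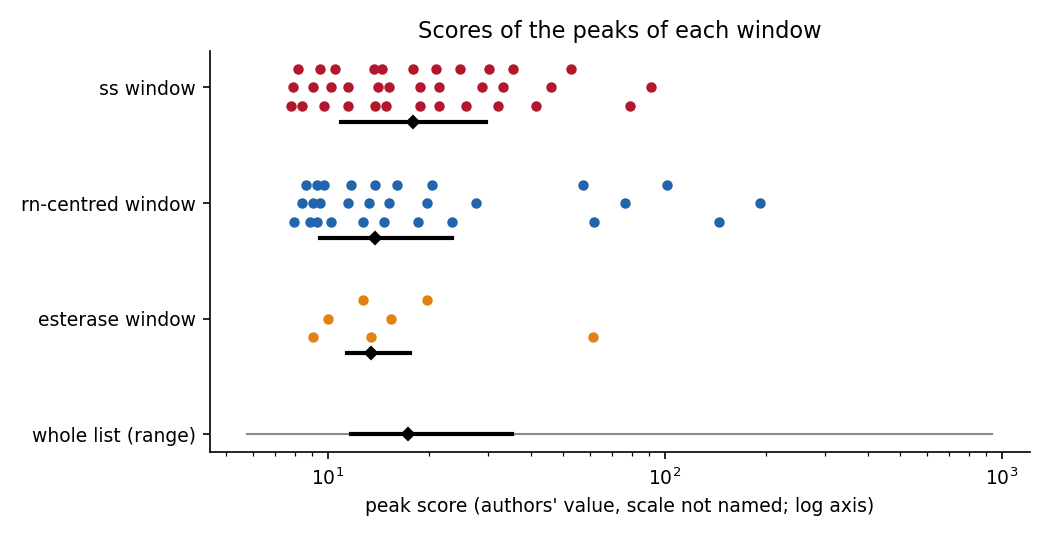
Scores of the peaks of the ss window (35 points), the rn-centred window (29) and the esterase window (7), on a log axis, with points spread vertically for view. Diamonds and thick bars give the median and interquartile range, and the lowest row gives them with the range of the whole list. The points of rn reach 191.32, those of ss stop at 91.19, and the medians of 17.87, 13.83 and 13.45 lie near the list's 17.27 or below it.

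A count per gene follows the span of each gene, where a window has a fixed size, but it is not corrected for length. Peaks were counted in the span of each of 3387 protein-coding genes of 3R and 10 kb either side. For ss, with a span of 29.3 kb, the count was 19, which 0.679% of the genes reached. For rn, with 37.0 kb, it was 16, which 1.12% reached. The median gene had 3. As a longer span gives more room for peaks, the counts were also taken per kb and among genes of similar span. Per kb of span and flanks, ss had 0.386 peaks, which 3.57% of the genes reached, and rn had 0.281, which 11.9% reached, against a median gene of 0.126. Among genes with a span from 0.5 to 2 times as long, 2.93% reached the count of ss and 10.5% that of rn.

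The 12 other genes of 3R looked at were genes of leg or antenna development and partners or relatives of ss and rn. Of these, 9 were at or past 8 peaks, the 90th percentile, where 11.2% of all genes stood. Their median was 14.5 peaks and that of all genes 3. Per kb, 7 of the 12 were at or past the 90th percentile of 0.291, where 10.0% of all genes stood, with a median of 0.322. The list was drawn up with earlier results of these data known.

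Genes that act beside ss differed widely in count. tgo, which encodes its partner Tango, had 1 peak, of 51.81, in the 10 kb flanks and 0 inside its span. The antennal genes dan and danr, which encode nuclear proteins of distal antenna identity, had 8 and 7, partly the same peaks because the genes are neighbours. ss had 19 peaks and a top score of 91.19, and dysf, another bHLH-PAS gene, had 18 and 92.32. rn had 16 peaks and a top score of 191.32, and sqz, a zinc finger gene related to rn, had fewer peaks, 5, and a higher top score, 305.68.

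By count, hth, Antp and Ser stood above ss and rn, pnt stood between them, and C15, Dl and hh stood below both. C15, a homeobox gene of the most distal leg, had 15 peaks and a top score of 332.91. hth, which patterns the proximal limb and gives antennal identity with Dll, had 38 over its 132 kb, and the homeotic gene Antp, which promotes leg over antenna, had 58, the highest of any gene of 3R. Among signalling genes, the Notch ligands Ser and Dl had 24 and 14 peaks, the ligand gene hh had 13 and pnt, which encodes an ETS factor of EGF receptor signalling, had 17. In peaks per kb the order of these genes differed. Ser with 0.569, Antp with 0.472 and C15 with 0.457 stood above the 0.386 of ss. hh with 0.385 and Dl with 0.322 stood between ss and rn, which had 0.281. hth with 0.25 and pnt with 0.224 stood below both.

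**Figure D5:**
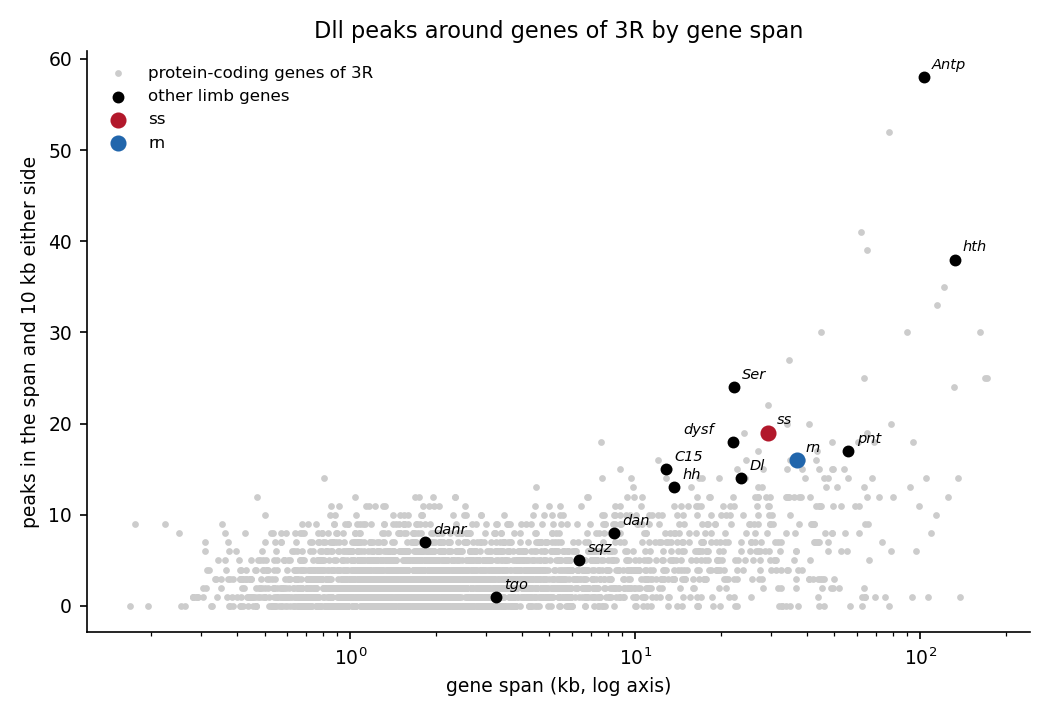
Number of Dll peaks in the span and 10 kb either side (vertical axis) against gene span in kb (horizontal log axis). Points are 3387 protein-coding genes of 3R (grey), the 12 other genes looked at (black), ss (red) and rn (blue). The key calls the 12 other limb genes, though they include partners or relatives of ss and rn. ss at 19 and rn at 16 lie in the upper part of the genes of like span, below Ser at 24.

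That the highest peak stands over an end of the gene was shared by ss, rn, C15 and Ser. Among the 370 protein-coding genes of 3R with a span of at least 10 kb and at least 3 peaks, 71, or 19.2%, had their highest peak over an end of the span. Of the other genes looked at that were in that set, dysf, hth, Antp, Dl, hh and pnt did not. This property was picked after the peaks of ss and rn were seen, and whether the ends concerned are starts of transcripts was not tested.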

How the data were processed

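ChIP-seq with an antibody against Dll was run on white prepupae, with 2 ChIP and 2 input libraries. Per the submitters' processing notes, CASAVA (1.7.0.2 and 1.7.0.3), BWA, MACS2 and genome build BDGP 5 were used. The threshold, filters, use of the inputs and pooling of replicates are not stated there or in the labels. Per the file headers, the deposited list is GFF version 3 on FlyBase release 5, with a score per peak of unnamed scale. The list has no counts, so depth and its precision are unknown. Nothing in the labels says whether replicates were separate collections.

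Peaks were assigned by midpoint with Python 3.11.15, numpy 2.4.6 and pandas 2.3.3. Widths are end minus start plus 1. Windows of 100 and 160 kb were laid from the first peak of 2L, 2R, 3L, 3R and X, and part windows were left out. Gene names and spans came from RefSeq's Release 6 table, minus 4174278 on 3R, and 11 genes left at or below position 0 were dropped. As a check, 36 of 36 older gene names that hold 3R coordinates overlapped the shifted span of their gene. Of the 3R peaks, 18.9% lay within 500 bp of a gene end, and 16.2% to 18.1% did with the constant moved by 2 to 50 kb. Having no strand, the table gives no gene starts, so either end stood for the planned start. Scripts were tested on simulated data. The loci, lists and rules were chosen with earlier results of these data known. By rule, genes named are ss, rn, protein-coding genes of the windows and 12 limb genes or partners or relatives of ss and rn. Peaks named are the 5 highest, the 5 widest, the first and the last of each window. Noncoding genes, and other peaks given by score, were named after their values were seen.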

Additional observations from a re-analysis of the deposited data

How the results depend on the processing

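Of 70 alternative values for 14 results, 27 kept within 1.5 times the value for peak numbers, or within the 95% exact binomial interval for shares, and 43 moved. The interval treats bases, windows and genes as independent, which neighbours are not. It therefore measures no error of the data and served only as a yardstick. The alternative values of the rn-centred window were added after the list was seen. Among the highest 50% and 25% of scores, which leave fewer peaks by construction, the ss window held 18 and 6 peaks over 16.9% and 6.46% of its length, the rn-centred window 11 and 6 over 5.13% and 3.52%, and the esterase window 2 and 1 over 0.551% and 0.341%. Merging peaks less than 1000 bp apart left 17 regions at ss over 32.1%, and moved the cover at rn to 11.3%. The share of windows with at least as many peaks as ss was 5.04% on 3R, 4.90% and 19.1% for those scores, 8.53% merged, 1.31% for the central 50 kb and 57.3% by highest score. For the rn-centred window it was 31.7% without X, 33.3% on 3R, 42.0% and 39.1% for those scores, 19.5% merged, 9.18% in the central 80 kb, 31.2% by cover and 41.1% by highest score. For the esterase window it was 89.0% without X, 90.2% on 3R, 90.5% and 90.9% for those scores, 81.1% merged, 74.3% for the central 80 kb and 81.8% by highest score. The share of 3R genes reaching ss was 1.03% without flanks, 2.93% among genes of like span, 3.57% per kb and 3.84% for the highest 25%. For rn it was 10.5%, 11.9% and 3.84% in the last 3 settings. The cause of these moves was not tested. No paired analysis was possible because the list has no value per library, and for the same reason no replicate could be left out.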
